A study of Mus musculus with 28 samples.

Results

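SSEA1+ cells are the minority of reprogramming fibroblasts that have lost the fibroblast surface protein Thy1 and gained the carbohydrate SSEA1. The data below describe how the transcripts of these cells moved between day 6 of factor expression and days 9 and 12. The arrays were chosen by their labels: the single day 9 and the single day 12 array of SSEA1+ cells (both named M2) formed the late group, and the 2 day 6 arrays of SSEA1+ cells (M2 and M3) were what they were set against. That is 4 of the series' 28 arrays, all 4 in the table of 24 arrays that holds the time course; the other 4 arrays split day 6 SSEA1+ cells by the epithelial surface protein EpCAM on another array design. The cells were C57BL6/129 mouse embryonic fibroblasts, cultured from embryos of day 13.5, from a strain that carries a cassette of Pou5f1, Klf4, Sox2 and Myc and the Rosa26-M2rtTA allele, so that doxycycline turns the cassette on. The labels allow 1 copy of each (het/het) or 2 copies (ho/ho) and do not say which array had which. The cells of all 4 arrays were kept in embryonic stem cell medium with serum, LIF and doxycycline, and were then sorted as Thy1-, SSEA1+ and GFP-; the gene that the GFP reporter marks is not named in the labels. Starting fibroblasts (MEF), day 3 SSEA1+ cells, SSEA1- cells with Thy1 (Thy1+) and without it (Thy1-) of the same days, 1 array of day 12 SSEA1+ cells that were GFP+, and 3 arrays of induced pluripotent stem (iPS) cells served as points of reference. A sort on the same surface markers does not follow the same cells from day to day, so a change between days can be a change within cells or a change in which cells carry the markers, and in such bulk RNA fewer cells of a type and less RNA per cell cannot be told apart.

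Reprogramming with these 4 factors passes through recognised stages. Fibroblasts first lose part of their mesenchymal programme and switch on epithelial adhesion genes, a step called the mesenchymal-to-epithelial transition. SSEA1 appears on cells on the productive route well before the endogenous pluripotency network, built around Pou5f1, Sox2 and Nanog, is switched on, and cells that keep Thy1 rarely go on. Between the gain of SSEA1 and the expression of a pluripotency reporter lies the interval in which the endogenous network is assembled. The SSEA1+ GFP- cells of days 6, 9 and 12 sample that interval.

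The values are log2 signals from oligonucleotide arrays that read the 3' end of transcripts, normalised by the authors with RMA (robust multi-array average), so a difference of 1 is a 2-fold change in signal. Array medians lay between 6.84 and 6.99 on all 24 arrays. The 18S ribosomal control read 10.55 and 10.04 on the day 6 arrays and 10.82 and 11.51 on the day 9 and day 12 arrays, so it was higher on both late arrays; its part in the results was not tested, and the housekeeping list below had a median change of -0.04. One array outside the SSEA1+ comparison, Thy1+ cells of day 6 (M2), stood apart by a steeper 3' to 5' signal of Gapdh (1.78 on the log2 scale, against 0.82 to 0.90 on the 4 SSEA1+ arrays); without it 133 genes were higher and 170 lower in late SSEA1+ cells. The same 3' to 5' measure of Actb read 0.776 and 0.803 on the day 6 SSEA1+ arrays, 0.836 on day 9 and 1.02 on day 12, so it was highest on the day 12 array, which also carried most of the calls; its part in the results was not tested. Whether M2 and M3 are separate animals or cultures is not in the labels; the p-values rest on how far these arrays differ, and that spread may be only technical. Each late day has 1 array, whose spread is assumed to be that of the groups with replicates, and the number of arrays limits the precision of every value here. Of the markers that define pluripotent cells all 8 measured were called higher late, against 1.07% of all genes. The array medians of these 8 were 5.05 and 5.04 on day 6, 5.87 on day 9 and 8.90 on day 12. Most of their rise thus lay on the single day 12 array. Of the markers that define fibroblasts 2 of 8 were called lower, against 1.29% of all genes. The array medians of the fibroblast markers were 8.65 and 8.78 on day 6, 8.42 on day 9 and 7.91 on day 12, so fibroblast transcripts were still measured in all of these cells. SSEA1 is a carbohydrate and has no probe set. Thy1 transcript was still measured in these cells sorted as Thy1-, at 9.57 and 9.45 on day 6, 8.88 on day 9 and 8.18 on day 12, against 11.79 and 11.80 in MEF.

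In late SSEA1+ cells 16 of 35 pluripotency and 16 of 35 epithelial genes were higher than on day 6, led by Sall4, Nanog and Esrp1, and 10 of 29 inflammatory and 10 of 37 mesenchymal genes were lower, led by Ptgs2, Il6 and Prrx1. A gene was counted as higher or lower when the limma fit over all 24 arrays gave a Benjamini-Hochberg adjusted p under 0.05, the mean of days 9 and 12 differed from day 6 by at least 2-fold, and both late arrays lay beyond both day 6 arrays. By that rule 126 of 11807 genes were higher late (1.07% of genes tested) and 152 were lower (1.29%), while the median of all genes moved by 0.06. An unadjusted p under 0.05 was reached by 1309 higher genes (11.1% of genes tested) and 958 lower genes (8.11%), the shares beside which the same counts for gene lists below are to be read. In 54 of the higher genes (0.457% of genes tested) and 82 of the lower genes (0.695%), each late array on its own lay at least 2-fold from the day 6 mean. Position alone says little with 4 arrays: both late arrays lay above both day 6 arrays, by any amount, in 33.9% of all genes and below them in 22.6%. Leaving out single arrays changed the counts: without day 9 there were 222 higher and 235 lower genes, without day 12 there were 39 and 37, and without the M2 array of day 6 there were 91 lower genes. Fitting the 4 arrays alone gave 48 higher and 83 lower genes. Of 35 genes followed one by one (the 15 largest changes each way and 5 further genes), 16 were no longer called without day 12: Sox2, Lin28a, Dppa5a, Dppa2, Krt8, Cldn7, Cdh1, Prrx1, Postn, Col1a1, Cxcl5, Ptx3, Pcdh7, Sptssb, Zfpm2 and Clca3a2. Without the M2 array of day 6 the calls of Col1a1, Postn, Cxcl5 and Ptx3 were lost, and without the M3 array those of Col1a1 and Postn. With the late days fitted as 1 group 7 lost their call (Sox2, Lin28a, Dppa5a, Dppa2, Krt8, Sptssb and Clca3a2). With the 4 arrays alone 15 did: Sox2, Lin28a, Dppa5a, Dppa2, Pou5f1, Esrp1, Cldn7, Cdh1, Ripk4, Zic2, Prrx1, Postn, Col1a1, Pcdh7 and Sptssb. None of the 35 changed direction, but that is largely built in and nothing is read from it. Several settings reuse the same difference, and a call requires both late arrays beyond both day 6 arrays.

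**Figure D1:**
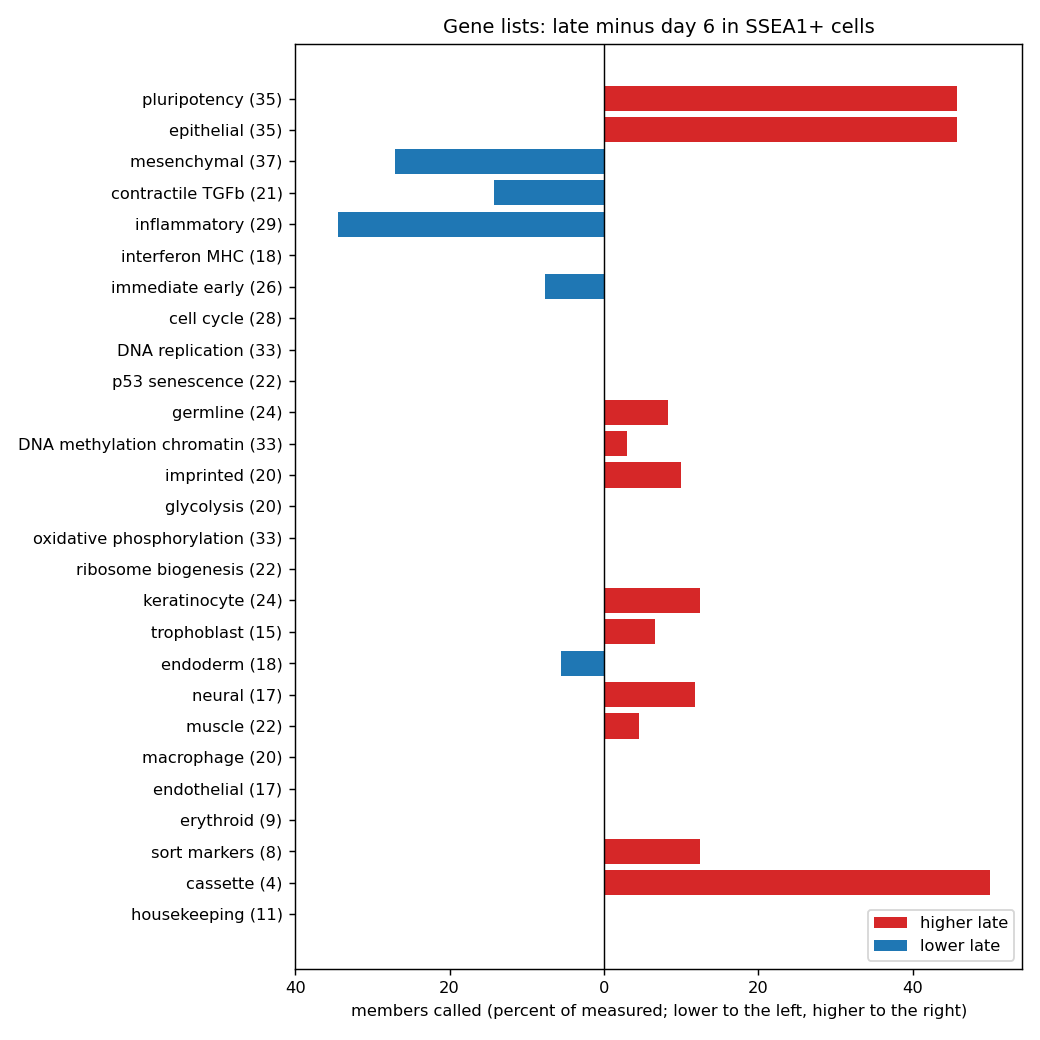
Share of the measured members of each gene list that were called higher (bars to the right, red) or lower (bars to the left, blue) in SSEA1+ cells of days 9 and 12 against day 6, in percent of measured members. Apart from the 4 cassette genes, of which Pou5f1 and Sox2 were called, pluripotency and epithelial genes have the longest bars to the right and inflammatory and mesenchymal genes the longest to the left, while cell cycle, metabolism and blood cell lists have none.

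Sall4 and Nanog, both pluripotency genes, had the largest rises of all genes called. Of 35 measured members of the pluripotency list 16 were higher and none was lower, with a median change of 0.96 over the 35. Unadjusted p was under 0.05 for 27 higher and 2 lower members. The summed linear signal of the list was 10820 and 10690 on the day 6 arrays, 13880 on day 9 and 26440 on day 12. Without the day 12 array 7 members were called higher, and with days 9 and 12 fitted as 1 group of 2 arrays 8 were.

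Nanog, the homeodomain factor that stabilises the pluripotent state, read 6.43 and 6.06 on day 6, 9.11 on day 9 and 10.62 on day 12. The groups did not overlap, as a call requires, and day 9 already stood over 2 above both day 6 arrays. The change was 3.62 (SE 0.40), or 12.3-fold (limma adjusted p = 8.71e-05). MEF had read 4.88 and 5.05, and the day 12 GFP+ array read 11.49, close to the iPS mean of 11.79 ± 0.26 (SD, n = 3). The Nanog promoter is shown because it holds the composite element at which a POU factor and an SRY-box factor can sit side by side, the kind of sequence that the cassette's Pou5f1 and Sox2 recognise. The window below is chr6:122707239-122707538 of GRCm38.p6 (RefSeq), plus strand, from 250 bases before the gene's start to 50 after it, with the element in capitals.
Nanog: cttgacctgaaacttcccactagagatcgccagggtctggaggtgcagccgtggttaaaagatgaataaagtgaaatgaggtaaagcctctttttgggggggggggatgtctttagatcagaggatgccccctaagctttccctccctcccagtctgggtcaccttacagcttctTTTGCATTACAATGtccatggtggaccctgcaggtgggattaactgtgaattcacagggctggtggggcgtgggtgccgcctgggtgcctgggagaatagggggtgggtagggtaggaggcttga
The capitals begin 75 bases before the start. The motif searched was TTTGCATNACAANG on both strands, and among 9430 genes with a promoter window it was found in 2, Nanog and Astn1 (0.0212%). The octamer ATGCAAAT, also searched, was in the windows of 1.92% of genes, 5.26% of those that rose and 3.67% of those that fell. It was in 8.33% of the pluripotency list (2 of 24) and 10% of the inflammatory list (2 of 20). A match is a description of the letters and no evidence of binding in these cells.

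Sall4, a zinc-finger factor of the same network, came first: 6.85 and 6.78 on day 6, 9.39 on day 9 and 11.49 on day 12, a change of 3.62 (SE 0.44, adjusted p = 0.000218). A further probe set of Sall4 changed by 0.70, so the size depends on the probe set. Nr0b1, an orphan nuclear receptor of embryonic stem cells, rose early, from 6.93 and 6.77 to 9.17 on day 9 and 9.75 on day 12 (change 2.60, SE 0.15, adjusted p = 2.55e-07). Nr5a2, a nuclear receptor that binds the Pou5f1 regulatory region, went the same way, from 4.85 and 5.23 to 6.93 and 7.50 (2.17, SE 0.20, adjusted p = 3.14e-05). Eras, a constitutively active Ras protein of embryonic stem cells, read 5.34 and 5.35 on day 6, 7.51 on day 9 and 9.01 on day 12 (2.92, SE 0.26, adjusted p = 2.37e-05). In these 5 genes, counting Nanog, day 9 stood clear of day 6. Nodal, a TGF-beta family ligand of the early embryo, and Pou5f1 completed the 7 members of the list at or beyond 2-fold on both late arrays.

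A second set of pluripotency genes lay near its day 6 level on day 9 and high on day 12. Sox2 read 3.35 and 3.38 on day 6, 3.88 on day 9 and 8.95 on day 12. Its mean change of 3.05 (SE 0.43, adjusted p = 0.000665) therefore came mostly from 1 array, and day 12 lay 5.07 above day 9. The error of this fit does not hold the spread between days 9 and 12. Lin28a, an RNA-binding protein that blocks let-7 maturation, read 3.87, 3.82, 4.72 and 9.57 in the same order (3.30, SE 0.17, adjusted p = 2.17e-07). Dppa5a, an RNA-binding protein of the inner cell mass and stem cells, read 5.46, 5.29, 6.23 and 11.70 (3.59, SE 0.64, adjusted p = 0.00363). Dppa2, a chromatin protein of early embryos, read 3.36, 3.34, 3.78 and 8.73 (2.90, SE 0.37, adjusted p = 0.000271), although its other probe set changed by 0.99. Day 9 lay above day 6 in all 4 of these genes, as a call requires, but by less than 2-fold. With days 9 and 12 fitted as 1 group, which puts their spread into the error, none of the 4 was called (limma adjusted p = 0.191 for Sox2, 0.149 for Lin28a, 0.156 for Dppa5a and 0.124 for Dppa2). Zfp42, also known as Rex1 and used as a marker of naive pluripotency, stayed at 3.36 on day 9 against 3.34 and 3.15 on day 6 and read 6.82 on day 12 (1.85, SE 0.23, adjusted p = 0.000247). Dppa4, the partner of Dppa2, was not called, since day 9 (4.90) did not pass day 6 (4.98 and 4.91) while day 12 read 7.88.

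Levels reached by day 12 differed among members when set beside iPS cells. Sall4 came near its iPS mean, at 11.49 against 11.94, while Nanog was still below its own, at 10.62 against 11.79. Esrrb, an orphan nuclear receptor that can replace Nanog functions in stem cells, read 4.88 and 4.78 on day 6, 5.51 on day 9 and 7.05 on day 12, far below its iPS mean of 11.44, and the GFP+ array read 10.08 (change 1.45, SE 0.29, adjusted p = 0.00841). Zfp42 on day 12 (6.82) also lay far below the GFP+ array (9.87) and the iPS mean (10.68). Otx2, a homeobox factor of the postimplantation epiblast, read 4.41 and 4.23 on day 6, 4.76 on day 9 and 9.09 on day 12, and the GFP+ array (11.63) exceeded the iPS mean (9.66). Utf1 (1.02) and Tfcp2l1 (1.41) were called at smaller changes. Members that were not called included Fgf4, which lay near its day 6 level on both late arrays (change 0.13), Klf2 (0.03) and Tbx3 (-0.91, adjusted p = 0.002, under the fold limit).

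The cassette's own transcripts complicate its 4 genes. Probe sets for Pou5f1, Sox2, Klf4 and Myc may also read the doxycycline-driven transcripts, depending on which end they target. Pou5f1 read 5.22 and 5.62 on day 6, 6.85 on day 9 and 8.86 on day 12, and its day 6 values lay beside the MEF values of 5.36 and 5.07 while doxycycline was present. Its change was 2.44 (SE 0.21, adjusted p = 1.44e-05), against an iPS mean of 11.86 ± 0.08 (SD, n = 3). Klf4 read 10.01 and 10.00 on day 6, 9.40 on day 9 and 9.73 on day 12 (-0.44), with -1.31 from another probe set. Myc lay between 9.46 and 9.66 on all 4 arrays (0.13). Neither Klf4 nor Myc was called.

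**Figure D2:**
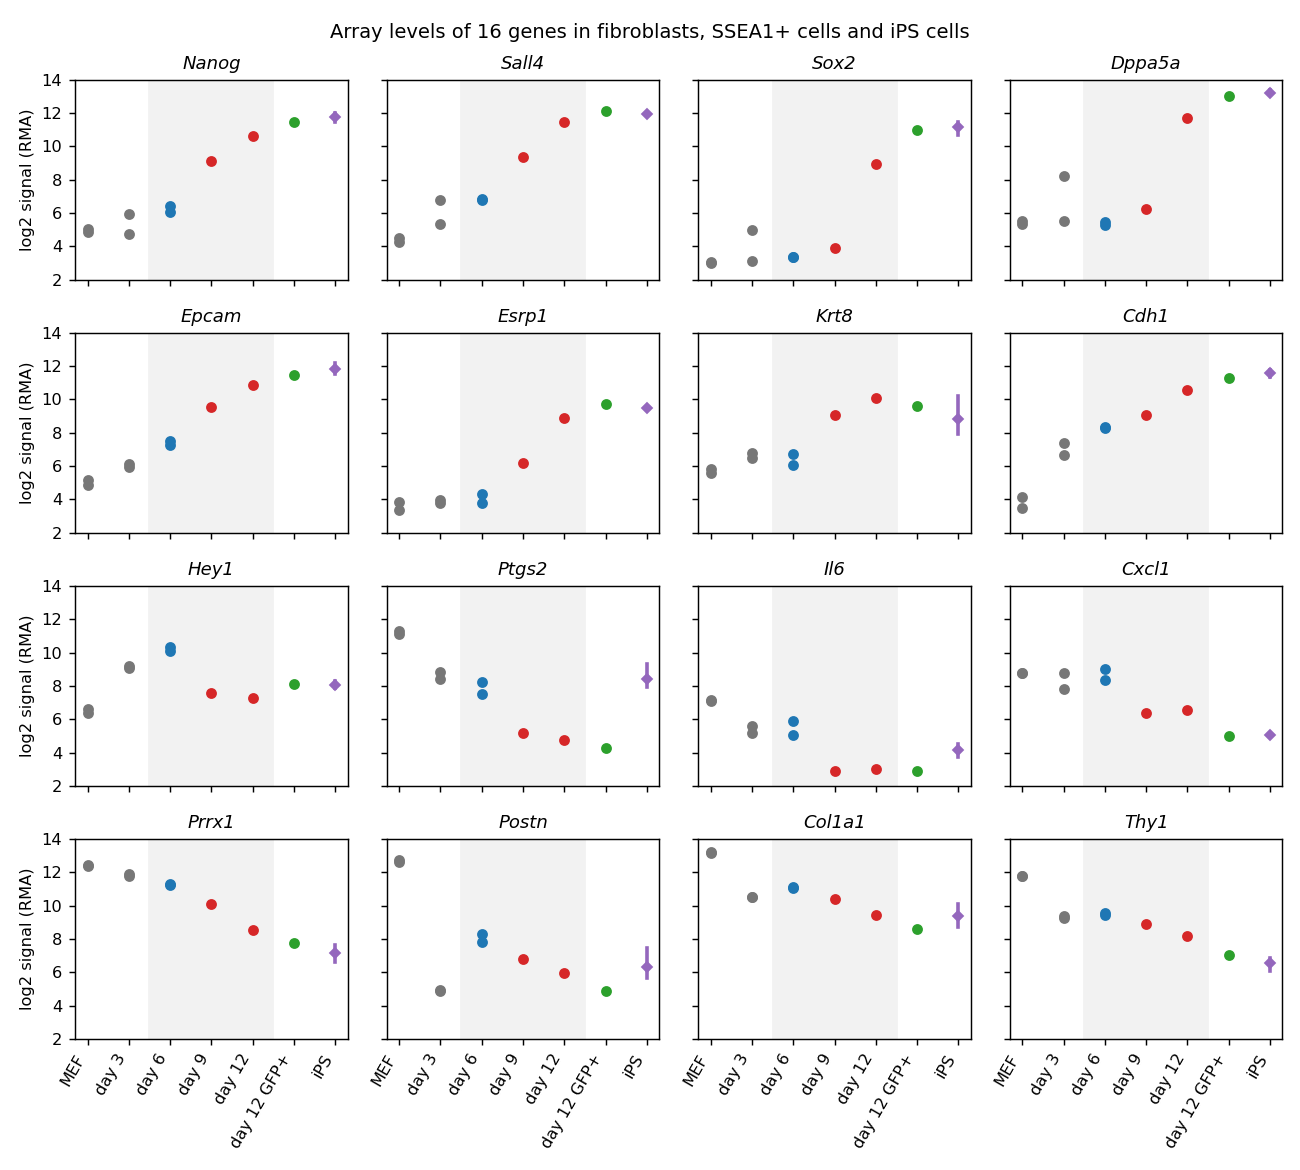
Log2 RMA signal of 16 genes in SSEA1+ cells by day: MEF and day 3 (arrays as points), day 6 (blue), days 9 and 12 (red), the day 12 GFP+ array (green) and iPS cells (diamond, mean; line, lowest to highest of 3 arrays). Nanog and Epcam step up by day 9, Sox2 mainly on day 12, Hey1, Il6 and Cxcl1 are down by day 9, and Prrx1 falls in steps.

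Epithelial genes gave as many calls as pluripotency genes. Of 35 measured members of the epithelial list 16 were higher and none was lower, with a median change of 0.89, and 9 were at least 2-fold higher on each late array. Unadjusted p was under 0.05 for 24 higher members and 0 lower ones in the limma fit. The summed signal of the list rose from 9170 and 9812 on day 6 to 12500 on day 9 and 18270 on day 12. Without the day 12 array 5 members were called higher.

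Epcam, a cell-surface adhesion protein of epithelia and pluripotent cells, read 7.29 and 7.48 on day 6, 9.58 on day 9 and 10.87 on day 12, from 4.84 and 5.14 in MEF. The groups were over 2 apart, and the change was 2.84 (SE 0.25), or 7.14-fold (adjusted p = 1.52e-05). The Epcam promoter is shown because it holds the E-box CAGGTG, the hexamer bound by the epithelial repressors of the Snail and Zeb families. The window is chr17:87635729-87636028 of GRCm38.p6 (RefSeq), plus strand, with the E-boxes in capitals.
Epcam: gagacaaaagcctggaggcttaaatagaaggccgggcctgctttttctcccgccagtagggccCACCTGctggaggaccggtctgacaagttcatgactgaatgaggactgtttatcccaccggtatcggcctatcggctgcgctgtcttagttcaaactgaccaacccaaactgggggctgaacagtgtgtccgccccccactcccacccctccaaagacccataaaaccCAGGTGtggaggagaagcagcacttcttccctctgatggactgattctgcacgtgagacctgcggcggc
The capitals begin 187 and 19 bases before the start, the first as CACCTG and the second as CAGGTG. This hexamer, on either strand, was found in the windows of 22.4% of the 9430 genes, in 42.1% of the genes that rose (40 of 95 with a window), in 21.1% of those that fell (23 of 109) and in 81.8% of the epithelial list (18 of 22). Median GC content of the windows was 59%, 57.3%, 58.7% and 61.3% in the same order. The pluripotency list had the hexamer in 37.5% (9 of 24) and the inflammatory list in 35% (7 of 20). These shares describe the letters only. Of the repressor genes themselves, none was called: Zeb1 changed by -0.40, Zeb2 by -0.28, Snai1 by -1.02 (adjusted p = 0.169) and Snai2 by -0.93.

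Regulators of the epithelial state were among the clearest risers. Esrp1, which directs epithelial splicing, read 3.76 and 4.32 on day 6, 6.21 on day 9 and 8.88 on day 12 (change 3.51, SE 0.19, adjusted p = 2.17e-07). Grhl2, a grainyhead factor that maintains epithelial junction genes, read 5.62, 5.58, 6.97 and 8.73 in the same order (2.25, SE 0.36, adjusted p = 0.00199). Both rose by day 9 and further by day 12. Esrp2, the paralog of Esrp1, rose less (1.03).

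Adhesion and cytoskeletal members followed by junction type. Among tight-junction genes, Cldn7 read 4.14 and 4.93 on day 6, 6.11 on day 9 and 8.78 on day 12 (2.91, SE 0.29, adjusted p = 4.22e-05). Cldn6, a claudin of the early embryo, rose by 1.92 and Ocln by 1.19, whereas the scaffold gene Tjp1 lay at -0.24 and was not called. Cdh1, the adherens-junction cadherin, was already at 8.32 and 8.27 on day 6, from 4.16 and 3.50 in MEF, and read 9.06 on day 9 and 10.55 on day 12 (1.51, SE 0.24, adjusted p = 0.00173). Its rise was thus smaller than that of Epcam from a higher day 6 level. Among desmosomal genes, Dsp read 7.32, 7.29, 9.23 and 10.27 (2.45, SE 0.31, adjusted p = 0.000315) and Dsg2 rose by 1.58, while Jup (-0.03) and Pkp2 (-0.18) stayed near their day 6 levels.

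The simple-epithelial keratin pair rose as well. Krt8 read 6.09 and 6.70 on day 6, 9.07 on day 9 and 10.09 on day 12 (3.18, SE 0.50, adjusted p = 0.00158). Its partner Krt18 read 5.63, 5.85, 6.55 and 8.99 (2.03, SE 0.46, adjusted p = 0.018). Krt8 gained most by day 9 and Krt18 by day 12. Day 12 SSEA1+ cells read higher for Krt8 than the iPS mean of 8.84 ± 1.20 (SD, n = 3). The serine protease gene St14 and its inhibitor gene Spint1, and the angulin gene Lsr, were each at least 2-fold higher on both late arrays (1.57, 1.14 and 1.57). Rab25, a small GTPase of epithelial recycling, rose by 1.08.

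Some risers belong to neither group. Zic2, a zinc-finger factor of the neural plate and of primed pluripotency, read 4.41 and 3.80 on day 6, 6.02 on day 9 and 8.39 on day 12 (3.10, SE 0.22, adjusted p = 1.98e-06). Ripk4, a kinase needed for epidermal differentiation, read 4.17, 3.98, 5.95 and 8.09 (2.94, SE 0.19, adjusted p = 9.36e-07). Igfbp2, a binding protein for insulin-like growth factors, read 7.64, 7.63, 9.83 and 11.43 (3.00, SE 0.29, adjusted p = 3.48e-05). All 3 stood at least 1.5 above day 6 on day 9 and higher again on day 12.

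A few genes of stratified epidermis rose. Krtdap, a secreted keratinocyte differentiation protein, read 8.33 and 8.60 on day 6, 11.08 on day 9 and 11.80 on day 12 (2.98, SE 0.31, adjusted p = 5.56e-05). Of 24 measured members of the keratinocyte list 3 were higher, with a median of 0.39 over the 24. They were Krt6b, a stress keratin (3.34, 3.43, 4.84 and 6.66; change 2.37, SE 0.14, adjusted p = 3.73e-07), Lgals7, the galectin of stratified epithelia (6.02, 6.05, 7.82 and 8.91; 2.33, SE 0.17, adjusted p = 2.38e-06), and S100a14 (1.44). None of the 5 markers that define keratinocytes on the marker list was called, and on the 4 SSEA1+ arrays they lay between 4.76 and 6.88. On the trophoblast list 1 of 15 rose, Elf5, an ETS factor of trophoblast stem cells and mammary epithelium (3.59, 4.32, 4.79 and 5.79; 1.34). On the neural list 2 of 17 rose, Tubb3, neuronal beta-tubulin (1.71), and Nefl, a neurofilament subunit (1.65). Tubb3 was higher in MEF (9.22 and 9.25) than in any of these cells.

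Some inflammatory genes fell and most did not pass. Of 29 measured members of the inflammatory list 10 were lower and none was higher, with a median of -0.55, and 7 were at least 2-fold lower on each late array. Both late arrays lay below both day 6 arrays in 18 of the 29 and above them in 2. Unadjusted p was under 0.05 for 14 lower members and 0 higher ones in the limma fit. The summed signal was 9865 and 8172 on day 6, 4765 on day 9 and 3448 on day 12. Without the day 12 array 5 members were called lower.

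Il6, the cytokine interleukin 6, read 5.92 and 5.08 on day 6, 2.92 on day 9 and 3.02 on day 12. The late arrays lay over 2 below the lower day 6 array and beside each other. The change was -2.53 (SE 0.39), 5.77-fold lower (adjusted p = 0.00142). Cxcl1, a neutrophil chemokine, read 9.02 and 8.37 on day 6, 6.39 on day 9 and 6.54 on day 12 (-2.23, SE 0.28, adjusted p = 0.000274). The promoters of both are shown because they hold a kappa-B element, the sequence bound by NF-kB factors. The windows are chr5:30012864-30013163 (Il6) and chr5:90890995-90891294 (Cxcl1) of GRCm38.p6 (RefSeq), both plus strand, with the elements in capitals.
Il6: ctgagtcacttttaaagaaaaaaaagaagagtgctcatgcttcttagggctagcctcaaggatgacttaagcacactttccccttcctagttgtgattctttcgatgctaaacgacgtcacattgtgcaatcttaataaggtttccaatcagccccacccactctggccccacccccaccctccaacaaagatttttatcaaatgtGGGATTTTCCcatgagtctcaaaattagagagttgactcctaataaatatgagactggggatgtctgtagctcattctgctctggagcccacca
Cxcl1: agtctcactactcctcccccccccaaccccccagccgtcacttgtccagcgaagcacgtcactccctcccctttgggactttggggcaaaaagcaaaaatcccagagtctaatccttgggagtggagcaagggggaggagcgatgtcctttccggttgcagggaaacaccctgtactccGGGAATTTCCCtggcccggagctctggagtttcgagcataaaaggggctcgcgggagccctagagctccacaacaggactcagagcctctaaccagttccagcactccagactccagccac
The capitals begin 44 bases before the start of Il6 and 71 bases before that of Cxcl1, where 2 overlapping matches share most of their letters. The motif searched was GGGANNTTCC on both strands. It was found in the windows of 1.69% of the 9430 genes, in 5.5% of the genes that fell (6 of 109 with a window), in none of the 95 that rose and in 25% of the inflammatory list (5 of 20). As above, these are counts of letters with no test.

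Other chemokines fell too. Cxcl5 read 6.20 and 6.23 on day 6, 3.97 on day 9 and 4.28 on day 12 (-2.09, SE 0.40, adjusted p = 0.00646). Ccl2, which attracts monocytes, read 10.08, 9.87, 8.82 and 8.13 (-1.50, SE 0.18, adjusted p = 0.000218). Cxcl12, the stromal ligand of Cxcr4, fell by 1.12 and Cxcl2 by 1.34. Cxcl5 reached its low on day 9, whereas Ccl2 went down again by day 12. Il1rn, the decoy ligand of the interleukin 1 receptor, read 10.50 and 10.19 on day 6, 9.46 on day 9 and 8.42 on day 12 (-1.40). Nfkbiz, a nuclear IkB protein needed for Il6 induction, fell by 1.66 (SE 0.22, adjusted p = 0.000477), while Nfkbia, the inhibitor IkB-alpha, stood at -0.98, under the fold limit.

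Ptgs2, Pla2g4a and Ptx3 were among the 15 largest falls. Ptgs2, the inducible cyclooxygenase, had the largest fall of all genes: 8.25 and 7.49 on day 6, 5.20 on day 9 and 4.78 on day 12, from 11.13 and 11.27 in MEF (-2.88, SE 0.47, adjusted p = 0.00199). A further probe set of Ptgs2 did not move (-0.04), and the mean over its probe sets was -1.46, which did not pass. Pla2g4a, the cytosolic phospholipase that supplies arachidonic acid to cyclooxygenases, read 6.91, 6.64, 4.61 and 4.44 (-2.25, SE 0.35, adjusted p = 0.00145). Ptx3, a soluble pattern-recognition protein of fibroblasts, read 9.33, 8.61, 7.16 and 6.95 (-1.92, SE 0.34, adjusted p = 0.00388). In these 3 genes, by the probe sets given, day 9 lay near the day 12 level. Of 18 measured interferon and antigen-presentation genes none was called in the limma fit (1 higher and 3 lower at an unadjusted p under 0.05). Ifi205, an interferon-inducible gene outside that list, fell, from 8.29 and 8.04 to 6.74 and 5.79 (-1.90, SE 0.19, adjusted p = 3.51e-05). On the macrophage list 0 of 20 genes were called in the limma fit (3 higher and 0 lower at an unadjusted p under 0.05). Its summed signal was 1026 and 1194 on day 6 and 1254 and 1031 on the late arrays, and the markers that define macrophages lay between 2.92 and 6.70 on the 4 arrays.

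Mesenchymal genes gave as many calls, in a longer list. Of 37 measured members of the mesenchymal list 10 were lower and none was higher, with a median of -0.85, and 34 had both late arrays below both day 6 arrays. The count depended on single arrays: it was 18 without day 9, 1 without day 12, and 5 and 4 without the M2 and M3 array of day 6. Prrx1, a homeobox factor of limb and craniofacial mesenchyme, read 11.30 and 11.25 on day 6, 10.12 on day 9 and 8.51 on day 12 (-1.96, SE 0.23, adjusted p = 0.000154). Its level thus dropped in 2 steps of over 1 each. Postn, the matrix protein periostin, read 8.30 and 7.81 on day 6, 6.81 on day 9 and 5.93 on day 12 (-1.68, SE 0.44, adjusted p = 0.041). Day 3 SSEA1+ cells had read 4.91 and 4.89 for Postn, lower than any later day, and MEF 12.62 and 12.74.

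The other called members of the mesenchymal list fell by less than Prrx1 and Postn. Col1a1, the main fibrillar collagen chain, read 11.10 and 11.06 on day 6, 10.37 on day 9 and 9.46 on day 12 (-1.16, SE 0.30, adjusted p = 0.034), and was no longer called without either day 6 array. The collagen VI chain Col6a1 fell by 1.13. The matrix metalloproteases Mmp2 and Mmp14, a proenzyme and its activator, fell by 1.42 and 1.33. Cdh11, the mesenchymal cadherin, read 9.96, 9.64, 8.88 and 8.04 (-1.34, SE 0.24, adjusted p = 0.00406). S100a4, a calcium-binding protein of fibroblasts, fell by 1.31. In each of these genes both late arrays lay below both day 6 arrays, as a call requires. Members with little change included Vim, the intermediate filament vimentin (-0.16), and Dcn, the proteoglycan decorin (0.09), and Col3a1 stood at -0.79 (adjusted p = 0.168). Twist1 (-0.76) and Twist2 (-0.90), the helix-loop-helix factors of mesenchyme, were below the fold limit. Of 21 contractile and TGF-beta genes 3 were lower, with a median of -0.55: Myl9, the regulatory light chain of smooth-muscle myosin (10.72, 10.81, 9.95 and 8.92; -1.33), the ligand gene Tgfb3 (-1.19) and Ltbp2, a latent-TGF-beta-binding family protein (-1.46).

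Hey1 had the second largest fall. This gene encodes a helix-loop-helix repressor induced by Notch and BMP signals, and it read 10.32 and 10.11 on day 6, 7.57 on day 9 and 7.28 on day 12. The 2 groups lay over 2 apart and the fall was complete by day 9 (-2.79, SE 0.24, adjusted p = 1.44e-05). MEF had read 6.61 and 6.38 and day 3 cells 9.19 and 9.09. On the arrays of the time course the day 6 level was thus a peak between lower levels. The GFP+ array (8.11) and iPS mean (8.05 ± 0.23, SD, n = 3) were again above days 9 and 12. Day 6 SSEA1+ cells split by EpCAM, on another array design, did not show this high level. Hey1 read 5.89 and 6.15 in EpCAM- cells and 5.91 and 6.11 in EpCAM+ cells. Whether the array design or the cells made this gap was not tested. Hes1, another Notch target, read 9.34, 9.00, 7.80 and 7.44 (-1.55, SE 0.26, adjusted p = 0.00251), and Hey2, the paralog of Hey1, read 7.42, 7.11, 5.85 and 5.58 (-1.55, SE 0.42, adjusted p = 0.048). The BMP targets Id1 and Id3, inhibitors of helix-loop-helix factors, also fell, Id1 by 1.69 (SE 0.27, adjusted p = 0.00163) and Id3 from 11.26 and 11.29 to 9.87 and 9.44 (-1.62, adjusted p = 0.000154). These 4 genes were chosen after their values were seen and are given as a description.

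Further large falls came from developmental and signalling genes. Dlx2, a homeobox factor of forebrain and neural crest, read 7.80 and 7.48 on day 6, 5.44 on day 9 and 5.33 on day 12 (-2.26, SE 0.24, adjusted p = 5.4e-05). Npy2r, a neuropeptide Y receptor, read 7.42, 7.07, 5.39 and 4.76 (-2.18, SE 0.21, adjusted p = 3.3e-05). Both had their main drop by day 9. Sptssb, a subunit of serine palmitoyltransferase, read 9.71, 9.85, 8.60 and 6.50 (-2.23, SE 0.34, adjusted p = 0.00117), and Pcdh7, a protocadherin, read 6.20, 5.84, 4.80 and 3.15 (-2.05, SE 0.32, adjusted p = 0.00154), so that their larger drop came by day 12. Zfpm2, a cofactor of GATA factors, fell by 1.99 and Clca3a2, a chloride-channel accessory protein, by 2.11, but a further probe set of each was flat (-0.16 and 0.06). Of 26 immediate-early genes 2 were lower, Atf3 (9.66, 9.43, 7.80 and 7.64; -1.82) and Egr2 (10.43, 9.92, 8.58 and 8.84; -1.47), with a median of -0.27. On the endoderm list 1 of 18 was lower, the endocytic adaptor Dab2 (-1.65).

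**Figure D3:**
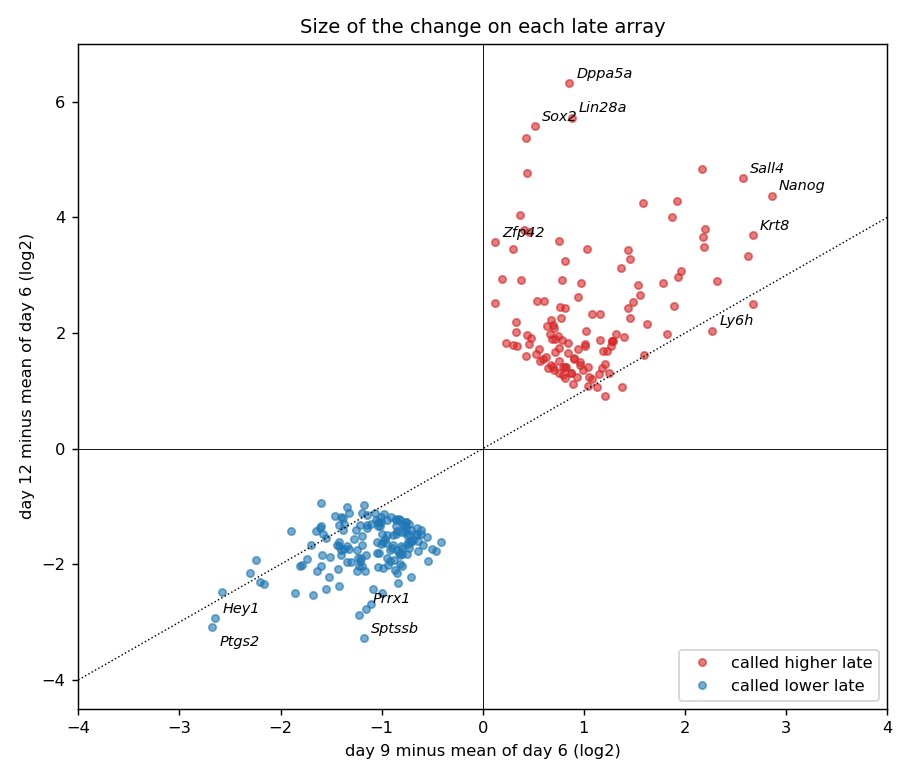
Change from the day 6 mean on day 9 (horizontal axis) and on day 12 (vertical axis), in log2 units, for the 126 higher and 152 lower genes; the dotted line marks equal change on both days. Most points lie beyond the line on the day 12 side, with Sox2, Lin28a and Dppa5a far off it and Hey1 and Ptgs2 close to it.

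Most of these genes had moved only part of the way by day 9. Both days are measured against the same day 6 arrays, so their values are set side by side only. Both late arrays also helped to choose these genes. Their overlap with genes that differ between day 12 and day 9 is thus partly built in, and nothing is read from it. Among the 126 genes that rose the median change was 0.90 on day 9 and 1.97 on day 12, day 9 had a median of 49.9% of the day 12 change, and 121 were further up on day 12. Among the 152 that fell the medians were -1.04 and -1.66, day 9 had 64% of the day 12 change, and 132 were further down on day 12. How many of all genes lay further from day 6 on day 12 than on day 9 was not counted. On day 9 the change was under 2-fold for 71 of the risers and 68 of the fallers, and under 0.3 for 6 risers and 0 fallers. Over all genes, day 9 against day 6 gave 39 higher (0.33%) and 37 lower (0.313%) genes, and day 12 against day 6 gave 222 (1.88%) and 235 (1.99%). Day 12 against day 9, 1 array each, gave 60 higher genes (0.508%) and 8 lower (0.0678%). The 126 risers held 37 of the 60, among them Sox2, Lin28a, Dppa5a, Dppa2, Zfp42, Pou5f1, Otx2, Cldn6, Cldn7 and Esrp1. The 152 fallers held 6 of the 8, among them Prrx1.

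Many programmes showed few calls. Cell cycle genes had 0 calls of 28 in the limma fit (8 higher and 1 lower at an unadjusted p under 0.05, median 0.25) and DNA replication genes 0 of 33 (12 higher and 0 lower, median 0.30). Genes of p53 and senescence had 0 of 22 (0 higher and 3 lower, median -0.20). Glycolysis, oxidative phosphorylation and ribosome biogenesis had 0 of 20, 33 and 22, with medians of 0.09, 0.03 and 0.15 and 3, 1 and 3 higher and 0 lower members at an unadjusted p under 0.05. On the germline list 2 of 24 rose, the homeobox gene Rhox5 (5.36, 5.26, 5.50 and 8.25; 1.56) and Kit, the stem cell factor receptor (1.01). On the DNA methylation and chromatin list 1 of 33 rose, Dnmt3l, the cofactor of de novo DNA methyltransferases, which stayed at its day 6 level on day 9 (4.74, 4.92, 4.95 and 7.36; 1.32, SE 0.28, adjusted p = 0.011). Of 20 imprinted genes and relatives of such genes 2 rose, the zinc-finger gene Peg3 (1.03) and Grb7, an adaptor of growth factor receptors (1.04). Of 22 muscle genes 1 rose, the myosin light chain gene Myl4 (1.14), and of 8 sorting and surface markers 1 rose, Epcam. Endothelial and erythroid lists had 0 calls of 17 and 9 (4 and 2 higher, 0 lower at an unadjusted p under 0.05), and 11 housekeeping genes had 0 (0 and 0). Of the enzymes that can build the SSEA1 epitope, Fut4 (5.17, 5.48, 5.08 and 5.14) and Fut9 (6.20, 5.77, 6.21 and 6.41) stayed near their day 6 levels. Thy1 itself stood at -0.98 (SE 0.26, adjusted p = 0.045), 1.98-fold lower and just short of the fold limit.

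**Figure D4:**
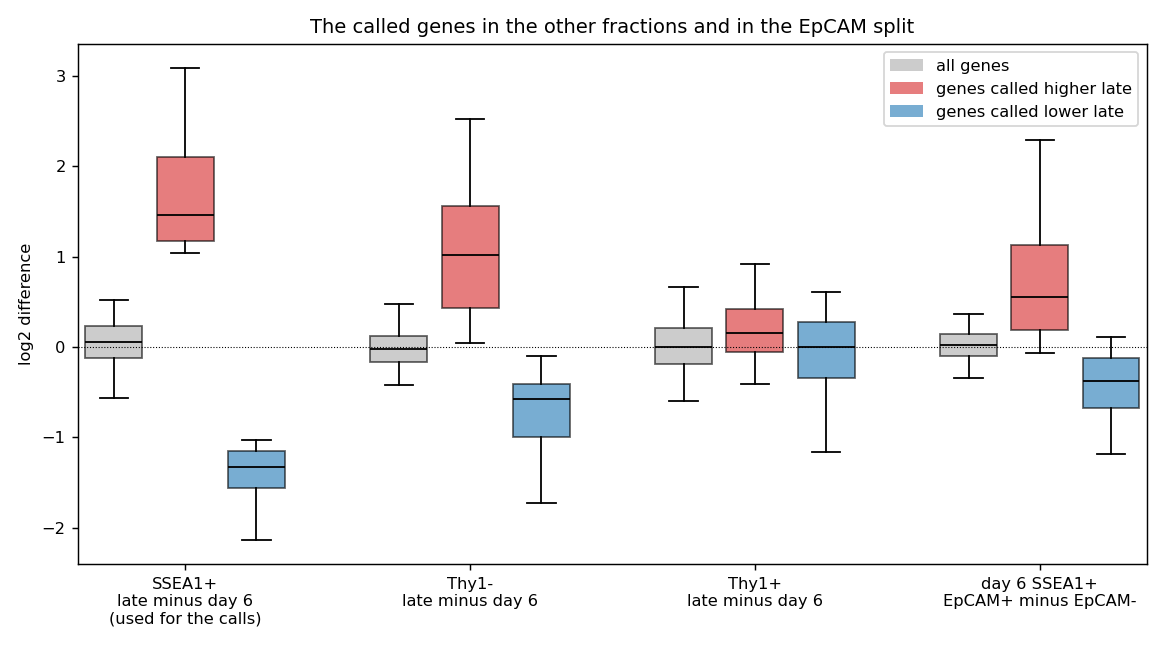
Late minus day 6 change in log2 units (boxes, 25% to 75% of genes; whiskers, 5% to 95%; line, median) for all genes, the 126 higher and the 152 lower genes, in SSEA1+, Thy1- and Thy1+ cells, and the difference between EpCAM+ and EpCAM- cells within day 6 SSEA1+ cells. The higher and lower genes were chosen in SSEA1+ cells; their boxes lie near 0 in Thy1+ cells and shifted the same way in Thy1- cells and in the EpCAM split.

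The same days in the other sorted fractions were measured on separate arrays. Thy1+ cells, which keep the fibroblast marker, gave 37 higher (0.313%) and 20 lower (0.169%) genes between day 6 and days 9 and 12. Their day 6 group includes the M2 array that stood apart. Of the 126 SSEA1+ risers 1 was higher there, Aldh1a1, a retinaldehyde dehydrogenase, and the median change of the 126 was 0.15. Of the 152 fallers 4 were lower there, Hey1, Cxcl5, Nfil3 and Ccl2 (Nfil3 was named after its values were seen), and the median was -0.003. Hey1 in Thy1+ cells read 10.32 and 10.83 on day 6, 8.71 on day 9 and 8.48 on day 12. Cells with neither marker (Thy1- and SSEA1-) gave 120 higher (1.02%) and 43 lower (0.364%) genes. Of the risers 62 were higher there (49.2% of the 126 and 51.7% of the 120) with a median of 1.02, and of the fallers 30 were lower (19.7% of the 152 and 69.8% of the 43) with a median of -0.58, against a median of -0.02 over all genes. On the lists, Thy1- cells had 9 higher pluripotency genes and 1 lower, 9 higher epithelial genes, 3 lower mesenchymal genes, and 5 lower inflammatory genes with 1 higher.

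The difference in change between fractions was tested as an interaction. Against Thy1+ cells 128 genes had a higher change in SSEA1+ cells (1.08%) and 193 a lower one (1.63%), which included 82 of the risers and 88 of the fallers. The interaction holds the same SSEA1+ difference that chose these genes, so a shared direction is built in and nothing is read from these shares. Among these, Zic2 changed by 2.94 more in SSEA1+ cells (SE 0.31, adjusted p = 0.000256), with 0.16 in Thy1+ cells. Ripk4 changed by 2.88 more (SE 0.27, adjusted p = 0.000124) and Esrp1 by 2.88 more (SE 0.26, adjusted p = 0.000118), with 0.06 and 0.63 in Thy1+ cells. None of these 3 passed the test within Thy1+ cells. Cldn7 followed with 2.81 (SE 0.41, adjusted p = 0.0034) and Igfbp2 with 2.71 (SE 0.41, adjusted p = 0.00404). In the other direction Ptgs2 differed by -2.85 (SE 0.66, adjusted p = 0.032): Thy1+ cells read 7.26 and 8.52 on day 6, 7.78 on day 9 and 7.93 on day 12. The 7.26 came from the day 6 array that stood apart (M2), so the size of this difference depends partly on that array. Ifi205 (-2.21, adjusted p = 0.000769), Pcdh7 (-2.21, adjusted p = 0.018), Ptx3 (-2.20, adjusted p = 0.025) and Pla2g4a (-2.20, adjusted p = 0.027) likewise had a lower change in SSEA1+ than in Thy1+ cells. Pcdh7 in Thy1+ cells read 5.21 on the day 6 array that stood apart (M2) and 6.42 on M3. It read 5.99 on day 9 and 5.97 on day 12, so the size of its difference depends partly on that M2 array. The counts depended on single arrays. Without the M3 array of day 6 Thy1+ cells, which leaves the one that stood apart, they were 819 and 1112, and without day 12 Thy1+ cells 83 and 80. Without the M2 or the M3 array of day 6 SSEA1+ cells they were 63 and 60 or 84 and 120, without day 9 SSEA1+ cells 221 were higher, and without day 12 SSEA1+ cells they were 15 and 12.

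Against Thy1- cells few genes were called as different. In simulated data with no minimum fold this test found 38.5% of true differences of 1 on the log2 scale. The comparison of late with day 6 SSEA1+ cells found 82% there. Few calls therefore do not show that the fractions changed alike. A higher change in SSEA1+ cells was called for 15 genes (0.127%) and a lower one for 7 (0.0593%), which included 12 of the risers and 2 of the fallers, chosen from the same difference. Krt6b differed most (2.11, SE 0.20, adjusted p = 0.000657), with 3.23 and 3.14 on day 6, 3.55 on day 9 and 3.33 on day 12 in Thy1- cells, near its lowest levels throughout. Nr5a2 differed by 1.92 (SE 0.29, adjusted p = 0.026), 2610528A11Rik by 1.93 (SE 0.29, adjusted p = 0.026), and Zic2 by 1.79 (SE 0.31, adjusted p = 0.042). Pou5f1 differed by 1.76 (SE 0.30, adjusted p = 0.038), with 5.43, 6.01, 5.53 and 7.26 in Thy1- cells. The fallers were Nr2f1, an orphan nuclear receptor (-1.63, SE 0.28, adjusted p = 0.041), and Bmp6, a BMP ligand (-1.26, SE 0.21, adjusted p = 0.038). Leaving out any 1 of the 8 arrays moved the higher count, the lower count or both by over 1.5 times. Leaving out the day 6 Thy1+ array that stood apart moved both as well.

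The EpCAM arrays ask whether the late pattern already separates cells within day 6. SSEA1+ cells of day 6 sorted as EpCAM+ were set against EpCAM- cells, 2 arrays each, with no strain given in their labels. Of 12394 genes 60 were higher in EpCAM+ cells (0.484%) and 33 lower (0.266%). Of the 124 late risers measured there 33 were higher (26.6% of the 124 and 55% of the 60), with a median of 0.55 and 114 above 0. Of the 150 fallers 12 were lower (8% of the 150 and 36.4% of the 33), with a median of -0.37 and 130 below 0, against a median of 0.02 over all genes. With 2 arrays a group this fit is fragile: leaving out any 1 array left 0 to 6 higher and 0 lower genes.

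Within that split Nanog read 5.49 and 5.35 in EpCAM- cells and 8.65 and 9.02 in EpCAM+ cells (3.42, SE 0.14, adjusted p = 0.00116). Sox2, low in unsplit day 6 cells, read 3.67 and 3.72 against 5.78 and 6.41 (2.40, SE 0.20, adjusted p = 0.0073). Both pairs were clear of each other. The Epcam transcript itself differed by 2.94 between these cells sorted by the EpCAM protein. Sall4 differed by 1.82, Zfp42 by 2.03, Eras by 2.81, Krt8 by 2.36 and Cdh1 by 1.69, all called. Lin28a (0.53, adjusted p = 0.177) and Dppa2 (0.26, adjusted p = 0.314) were not called. On the lists 7 pluripotency and 11 epithelial genes were higher and 4 mesenchymal and 3 inflammatory genes lower. Epcam, the gene of the sorted protein, belongs to the epithelial list and to the late risers. It was not taken out of the counts of this split. The cytokine Il6 (-0.16, adjusted p = 0.426), Cxcl1 (-0.27, adjusted p = 0.464) and Ptgs2 (0.68, adjusted p = 0.232) were not called in the limma fit, and the median of the inflammatory list was -0.01. Il6 read 3.159 and 3.315 in EpCAM- and 3.137 and 3.016 in EpCAM+ cells, near its lowest levels, so a lower value could hardly appear. Cxcl1 read 6.19 and 6.73 against 6.23 and 6.16, and Ptgs2 5.02 and 5.77 against 6.30 and 5.85. These genes lay nearer the late than the day 6 levels of unsplit cells, though on another array design. The split thus says little about their fall.

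iPS cells show how far the late cells had gone. This comparison shares the late arrays with the one that chose the genes, so no test of shared direction is given. Over all genes 991 were higher in iPS cells than in late SSEA1+ cells (8.39%) and 1026 lower (8.69%). Of the 126 risers 64 were higher again in iPS cells, 30 had no call and 32 were lower. The iPS cells were grown on feeders that were removed by plating before harvest, and what feeder RNA remained was not tested. Among the 64 the median signal was 5.33 and 5.32 on day 6, 6.16 on day 9, 8.29 on day 12, 9.78 in GFP+ cells and 9.82 in iPS cells. The 5 largest were Zfp42 (5.59, SE 0.21, adjusted p = 9.15e-11), Esrrb (5.16), Trap1a (4.88), Dnmt3l (4.74) and Sox2 (4.73). In 61 of the 64 the GFP+ array lay above both late arrays. How often the GFP+ array lay beyond both late arrays over all genes was not counted. The counts of this kind here and below are therefore descriptions only.

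The 32 risers that were lower again in iPS cells were chosen by their day 6, late and iPS levels, so only MEF, day 3 and the GFP+ array are further values. Their median signal was 5.95 and 6.13 on day 6, 7.15 on day 9, 7.63 on day 12, 5.88 in GFP+ cells and 5.01 in iPS cells, against 4.86 and 4.87 in MEF and 5.29 and 5.27 on day 3. In 24 of the 32 the GFP+ array of the same day lay below both late arrays. They held the epidermal genes Krtdap, Krt6b, Lgals7 and S100a14. Krtdap read 11.80 on day 12, 9.18 in GFP+ cells and 5.79 in iPS cells (-5.65 from late to iPS). Aldh1a1 had the largest drop (-5.84, SE 0.18, adjusted p = 2.24e-11), from 8.93 and 9.29 on days 9 and 12 to 5.29 in GFP+ cells and 3.27 in iPS cells. Pkp1, a desmosomal plakophilin of stratified epithelia, stood at -4.64.

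Of the 152 fallers 70 were lower still in iPS cells, 67 had no call and 15 were higher. Among the 70 the median signal was 8.86 on both day 6 arrays, 7.91 on day 9, 6.96 on day 12, 5.67 in GFP+ cells and 5.35 in iPS cells, and in 65 of them the GFP+ array lay below both late arrays. Akr1c14, a hydroxysteroid dehydrogenase (-5.03), and Meox2, a mesodermal homeobox factor (-4.95), had the largest drops among them. The 15 that were higher in iPS cells included Ptgs2, Il6 and Pla2g4a. Ptgs2 read 4.29 in GFP+ cells and 8.42 ± 0.76 (SD, n = 3) in iPS cells, and Il6 read 2.92 and 4.13 ± 0.39 (SD, n = 3). In these 15 the median was 7.66 and 7.42 on day 6, 6.00 on day 9, 6.21 on day 12, 5.69 in GFP+ cells and 8.17 in iPS cells. The GFP+ array lay above both late arrays in 6 of the 15 and below both in 8, so single members went both ways.

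**Figure D5:**
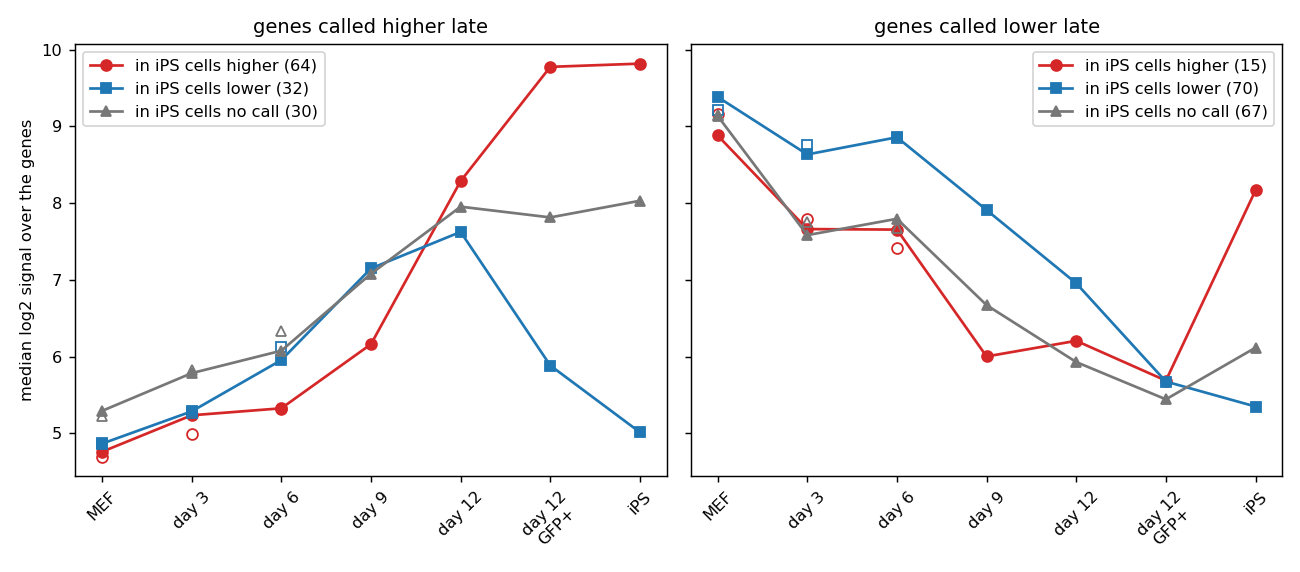
Median log2 RMA signal of the risers (split into those higher, not called or lower in iPS cells than in late SSEA1+ cells) and of the fallers, split the same way, in MEF, SSEA1+ cells of days 3, 6, 9 and 12, day 12 GFP+ cells and iPS cells; filled points are M2 arrays and open points M3 arrays where there are 2. The 64 risers that go on climb to 9.82 in iPS cells, while the 32 that are lower in iPS cells are highest on day 12, at 7.63.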

How the data were processed

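Total RNA of sorted cells was isolated without DNase digestion and labelled with biotin, per the labels' protocols. The authors deposited log2 values that had been normalised with RMA, per the submitters' processing notes. The version, and which arrays were normalised together, are not given in the sources used here. The table of 24 arrays has 22716 probe sets, of which 18003 had 1 gene symbol in the platform annotation, 287 several and 4426 none, and the EpCAM table has 22690, of which 20393 had 1. Each gene was represented by its probe set of highest mean, which left 11807 and 12394 genes; no 2 arrays held identical values.

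Differences were tested with limma 3.58.1 (R 4.3.3) on the deposited log2 values, with 15 group means over the 24 arrays (9 residual degrees of freedom) and a separate fit for the EpCAM arrays (2 residual degrees of freedom). The late group was the mean of the day 9 and day 12 groups. Adjusted p-values are Benjamini-Hochberg over all genes of a fit; a call in the other comparisons needs an adjusted p under 0.05 and 2-fold. Genes named are the 15 largest changes in each direction, members of the gene lists, the sorting markers, the cassette genes, and the 5 largest differences in each direction between fractions or against iPS cells. The members and lists were chosen with earlier results of these data known. Promoter windows came from RefSeq. The fit was tested on simulated data. Summaries used Python 3.11.15, pandas 2.3.3, numpy 2.4.6 and matplotlib 3.10.9.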

Additional observations from a re-analysis of the deposited data

Results flagged for a closer look

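The change between day 6 and days 9 and 12 was tested for a difference between sorted fractions, and these differences are listed for a closer look. In 321 genes the change in SSEA1+ cells differed from that in Thy1+ cells. The largest differences among the genes called in SSEA1+ cells, on the log2 scale, were those of Zic2 (2.94), Ripk4 (2.88), Esrp1 (2.88), Cldn7 (2.81) and Igfbp2 (2.71) in the upward direction. In the downward direction they were those of Ptgs2 (-2.85), Ifi205 (-2.21), Pcdh7 (-2.21), Ptx3 (-2.20) and Pla2g4a (-2.20). A further probe set of Ptgs2 did not move in SSEA1+ cells (-0.04). For Ptgs2 and Pcdh7 the day 6 Thy1+ array that stood apart (M2) read lower than M3, so these differences depend partly on it. In 22 genes the change in SSEA1+ cells differed from that in Thy1- cells. Upward these were led by Krt6b (2.11), 2610528A11Rik (1.93), Nr5a2 (1.92), Zic2 (1.79) and Pou5f1 (1.76), and the called fallers among them were Nr2f1 (-1.63) and Bmp6 (-1.26). Zic2 stood in both sets. The spread of the late groups, with 1 array each, was assumed and not measured, and what moved these genes was not tested.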

How the results depend on the processing

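None of the 35 genes followed through the alternatives changed direction, which the call rule largely builds in. Of the 35, 7 lost their call with the late days as 1 group and 15 with only the 4 arrays. Those lost without day 12 are named above. When each late array had to be 2-fold away 6 did (Sox2, Lin28a, Dppa5a, Dppa2, Cdh1 and Col1a1). With the mean of a gene's probe sets 1 did (Ptgs2). For late against day 6 SSEA1+ cells, 126 higher and 152 lower genes became 317 and 337 with no minimum fold, 54 and 82 when each late array had to be 2-fold away, 83 higher with the late days as 1 group, 48 and 83 with only the 4 arrays, and 39 to 222 and 37 to 235 with single arrays left out. Of the 268 genes called after quantile normalization 254 were among the 278. The difference from Thy1+ cells gave 39 and 87 genes with the late days as 1 group, and 15 to 819 and 12 to 1112 with single arrays left out. The difference from Thy1- cells gave 4 and 0 without the dimmest 25% of genes, 1 lower gene with arrays centred on their medians, 0 and 0 with the late days as 1 group, and 0 to 65 and 0 to 47 with single arrays left out. It gave 28 and 29 without the day 6 Thy1+ array that stood apart. For iPS against late cells there were 2364 and 2965 genes with no minimum fold. Among the late fallers 37 were lower in EpCAM+ cells with no minimum fold, and single arrays left out gave 0 to 6 risers and 0 fallers. Where the settings themselves (fewer arrays, another fold) do not show it, the cause was not tested.

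The names M2 and M3 do not say that arrays were paired: the correlation of M2 minus M3 differences ran from -0.21 to 0.21 over 21 pairs of groups, and 5 were over 0.1. With the replicate number as a block, 133 genes were higher and 152 lower in late SSEA1+ cells, of which 258 of 285 were shared, the difference from Thy1- cells gave 8 and 4 genes, and Col1a1 and Postn were no longer called. The labels' het/het and ho/ho cells cannot be told apart by array. The deposited values carry no detection calls, so low levels near 3 to 5 have no measured background.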

Other observations

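The 2 day 3 SSEA1+ arrays differed from each other for some of the genes that were low on day 6 and high on day 12. Dppa5a read 8.22 on M2 and 5.53 on M3, Sox2 4.96 and 3.15, Sall4 6.78 and 5.33, and Nanog 5.97 and 4.74. For Dppa5a and Sox2 the day 3 M2 array lay above both day 6 arrays and the day 9 array. Krt8, Krt6b and Cdh1 differed in how they stood beside iPS cells: Krt6b read 3.57 in GFP+ cells and 3.14 in iPS cells against 6.66 on day 12, whereas Cdh1 read 11.27 and 11.60 against 10.55.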
